A study of Mus musculus and Homo sapiens with 22 samples.

Results

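The regions described here are the introns of genes that do not code for protein, measured in cultured human cells 96 h after tau aggregation was seeded. They were taken from the authors' deposited intron table as every intron whose gene type is other than protein-coding and whose mean normalized count over the 6 libraries is at least 36. This rule kept 4233 introns of 1846 genes, which is 29.5% of the 14347 noncoding introns and 2.46% of the 172099 introns listed. The mean count that chose them comes from the same 6 libraries as the change between groups, so the counts of changed introns below are descriptions of the authors' calls. The 3 introns just inside the minimum lie in LINC02284, AP001001.1 and CCNT2-AS1, with mean counts of 36.0045, 36.0057 and 36.0083 and log2 changes of 0.26, -0.12 and -0.10. The 3 just outside it lie in LINC00893, AP000446.1 and NSMCE1-DT, with mean counts of 35.9643, 35.963 and 35.9069 and log2 changes of -0.14, -0.54 and 0.25. The minimum stands close to the lowest mean count, 35.2, for which the authors' deposited table gives an adjusted p at all.

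All cells came from HEK293, an embryonic kidney line, and made the tau repeat domain with the P301S change fused to CFP and to YFP (genotype HEK293 Tau-RD-P301S-CFP/YFP), so the tau transgenes are present in every group. In the group with tau aggregates (n = 3), cells were transfected by lipofection with 200 ug of clarified brain homogenate from P301S mice and kept for 96 h. In the group without tau aggregates (n = 3), the transfection status says that cells were mock transfected, and they were kept for the same time. The treatment text of the same samples speaks of WT or P301S homogenate, so whether the mock transfection held any homogenate is not settled by the labels. If it held none, homogenate and aggregates cannot be told apart in this comparison. Each replicate was a separate plate of 1 engineered line. Libraries of total RNA were primed with random hexamers. A second comparison used cells of the same genotype 24 h after the same seeding. There, RNA isolated with tau aggregates, which were spun down and then sorted by their fluorescence (n = 2), was set against total RNA of whole cells (n = 2). In bulk RNA, fewer cells with a transcript and less of it per cell cannot be told apart.

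Noncoding genes are transcribed and spliced as protein-coding genes are, but their exons make no protein, and for several of them the intron is the working product. Small nucleolar RNAs (snoRNAs), which guide chemical modification of ribosomal RNA, are cut from introns of host genes such as GAS5 and the SNHG genes once those introns have been spliced out, and many microRNAs are cut from introns of their own hosts. Other long noncoding RNAs stay in the nucleus, often on chromatin, and are spliced less completely than messenger RNAs. Pseudogenes of the unprocessed types are damaged gene copies that keep the exon and intron layout of their parents. The sequences of these human introns are not printed because they were not used here, and positions are those of the GRCh38 build, counted from 1.

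At an adjusted p under 0.05 in the authors' deposited table, 57 of the 4231 introns with an adjusted p were called, which is 1.35%. Over all 82091 introns of the table with an adjusted p, 1351 were called (1.65%), and over the 77807 of protein-coding genes 1.66% were. Of the noncoding introns, 41 were higher with aggregates, against 1.5% called higher over all introns and 1.53% over coding ones. The other 16 were lower with aggregates, beside 0.146% called lower over all introns and 0.134% over coding ones. Higher calls were thus 71.9% of the noncoding calls and 91.1% of all calls in the table. Noncoding introns held 16 of the 120 lower calls of the table (13.3%) and 41 of the 1231 higher calls (3.33%), and were 5.15% of the introns tested. These shares were not tested against each other. At an unadjusted p under 0.05 the table held 465 of the 4233 noncoding introns. That is a share close to that of all introns, with 9518 of the 82091.

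The bulk of the noncoding introns lay slightly below 0. Their median log2 change, with over without aggregates, was -0.13, with quartiles at -0.30 and 0.07, and most were below 0. Introns of protein-coding genes over the same minimum had a median of 0.01, and 51.2% of them were above 0. The precision was alike, with a median standard error of 0.25 on the log2 scale in both classes. The log2 scale is that of the authors' deposited table, whose header does not name the direction. It was read as with over without aggregates because the authors' splicing table names its groups. Of the 470 called introns with a log2 change above 0 and a retention level there, 444 had more retention with aggregates, and all 4 below 0 had less.

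**Figure D1:**
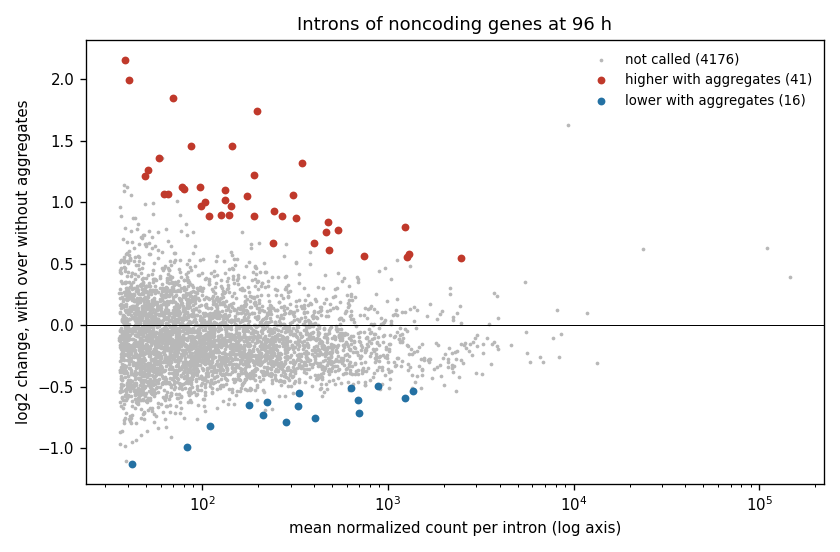
Log2 change of each of the 4233 noncoding introns, with over without aggregates, against its mean normalized count (log axis), from the authors' deposited table. Red points are the 41 introns called higher and blue points the 16 called lower at an adjusted p under 0.05; the calls reach 2.15 and -1.12.

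Intron length went with the size and sign of the change. Among noncoding introns of up to 200 bases the median log2 change was 0.14 and 60.3% of 68 were above 0. In the class from above 1000 to 5000 bases the median was -0.07 over 1368 introns. Over 20000 bases it was -0.23, with 18.4% of 927 above 0. None of the 460 introns of up to 1000 bases was called lower, while 13 were called higher (2.83%), 10 of them in snoRNA host genes. Precision also differed with length. The median mean count was 55.6 up to 200 bases and 171 over 20000 bases, and the median standard error 0.31 and 0.22. The size of change that could be called was thus not the same across lengths. All 16 lower calls were in introns of 1763 bases or more, and the longest of them, in NPSR1-AS1, spans 149050 bases. Long introns also held rises. Over 20000 bases, 12 noncoding introns were called higher and 8 lower (1.29% and 0.863%), beside 0.415% and 1.06% of coding introns of that length.

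The same order held for protein-coding introns, whose medians were 0.29 up to 200 bases, 0.06 from above 1000 to 5000 bases and -0.20 over 20000 bases. In each of the 6 length classes the noncoding median was the lower of the pair. Noncoding introns were also longer, with a median of 6663 bases against 3490 bases. Spearman's rho between length and log2 change was -0.28 over noncoding and -0.36 over coding introns, given as a description since introns of a gene share their transcript and all share the same 6 libraries. The part of length in the calls was not tested.

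**Figure D2:**
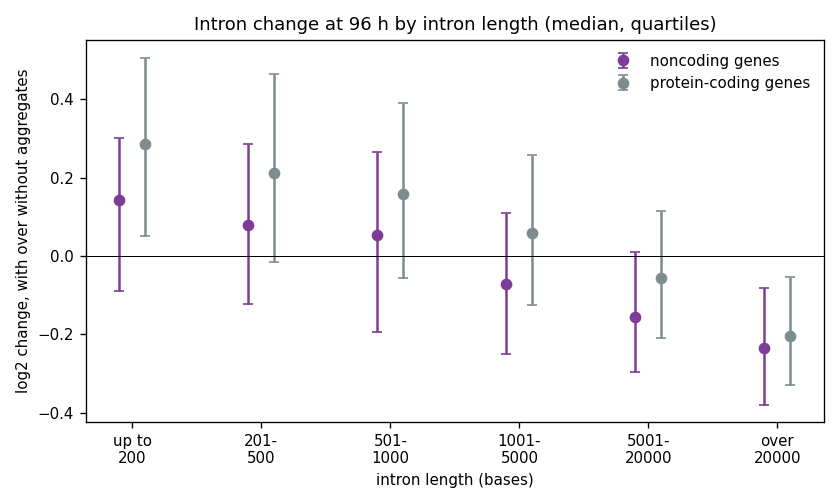
Median log2 change (points) with quartiles (bars) of introns in 6 length classes in bases, noncoding genes left of protein-coding genes, from the authors' deposited table. Both classes run from above 0 in the shortest introns to below 0 over 20000 bases, with noncoding medians from 0.14 to -0.23 and coding medians from 0.29 to -0.20.

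By gene type, the 1284 introns of lincRNAs (long RNAs between genes) held 18 higher and 4 lower calls, with a median log2 change of -0.18. All of these lincRNA calls were in introns over 1000 bases. The 1205 introns of antisense genes held 7 higher and 2 lower calls. Introns of processed transcripts, the type of SNHG1, GAS5 and SNHG17, were 12.4% of the set and had the highest share of calls among the types with over 200 introns. They held 12 higher and 7 lower calls among 525 (3.62%). Of those of up to 1000 bases, 10 of 72 were called higher, while those over 1000 bases held 2 higher and 7 lower calls among 453. The calls of this type lay in few genes. Of the 12 higher calls, 8 were in SNHG17, 2 in GAS5 and 1 in SNHG1, all snoRNA hosts described below. Of the 7 lower calls, 4 were in COX10-AS1. Pseudogene types differed in their shares of calls, beside 1.65% over all introns. The 700 introns of transcribed unprocessed pseudogenes held 1 higher and 2 lower calls (0.429%), and the 224 of unprocessed pseudogenes held 3 higher and no lower calls (1.34%). The 96 of transcribed unitary pseudogenes held 1 lower call (1.04%), and the 101 of transcribed processed pseudogenes held none in the authors' deposited table, with 5 at an unadjusted p under 0.05.

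Among the groups of named genes, introns of snoRNA hosts held the most calls. Of 30 listed hosts, 19 had introns in the set, 53 in all. Of these, 13 were called higher (24.5%, beside 1.5% over all introns) and none lower. At an unadjusted p under 0.05 there were 22 of the 53, beside 9518 of the 82091 introns with an adjusted p. Their median log2 change was 0.28, against -0.13 over all noncoding introns, and 77.4% were above 0. The calls lay in 4 hosts, SNHG17, GAS5, ZFAS1 and SNHG1. Short introns were common in the list, since 38 of the 53 were of up to 1000 bases. Whether each listed stretch is a whole intron or a part of 1 was not checked, and the shortest, in SNHG19, has 37 bases. These 38 held 10 of the calls and had a median of 0.48, while the 15 longer ones had a median of 0.10. Outside the list, the 422 noncoding introns of up to 1000 bases held 3 higher calls (0.711%) and had a median of 0.05, and protein-coding introns of that size had a median of 0.19 with 3.07% called higher.

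SNHG1 (ENSG00000255717) carries snoRNAs in nearly every intron and is spliced into a short noncoding RNA. Its intron at chr11:62853733-62853800, of 68 bases, had the smallest adjusted p of the noncoding set, with a log2 change of 1.74 ± 0.26 (SE), 3.34-fold, and an adjusted p of 5.17e-08 in the authors' deposited table. The other SNHG1 intron in the set, of 67 bases, had 0.58 and was not called.

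GAS5 (ENSG00000234741), named for its rise in growth-arrested cells, is a snoRNA host whose spliced RNA is degraded when it is translated. The intron at chr1:173867816-173867959, of 144 bases, rose by 1.22 ± 0.23 (SE) with an adjusted p of 4.07e-05, and the one of 194 bases rose by 0.93 ± 0.23, both in the authors' deposited table. The third GAS5 intron, of 270 bases, had a log2 change of 0.59 with an adjusted p of 0.106, so all of the GAS5 introns measured lay above 0.

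SNHG17 (ENSG00000196756) was the host with the most called introns. Of its 11 introns on chromosome 20, 8 were called higher and all lay above 0, between 0.32 and 1.06, with a median of 0.77. The called ones ran from 0.55 ± 0.14 for the intron at chr20:38422242-38425194, of 2953 bases, to 1.06 ± 0.26 for the one at chr20:38433999-38434503, of 505 bases. The uncalled ones had 0.51, 0.46 and 0.32. Since introns of a gene come from the same transcripts and libraries, the 8 calls are no replicates of each other.

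ZFAS1 (ENSG00000177410), a snoRNA host transcribed from the opposite strand beside ZNFX1, had 2 of 8 introns called. The intron at chr20:49278739-49278939 rose by 1.12 ± 0.26 and the one of 1110 bases by 0.67 ± 0.19, both at the low-coordinate end of the gene. The ZFAS1 introns of 1627 and 4254 bases at the other end had -0.10 and 0.05. The introns of ZNFX1, whose nearest one lies 810 bases from the ZFAS1 introns, held no call among the 10 with an adjusted p. Reads of overlapping antisense transcripts cannot be told apart here, since no strand setting is stated for the counting.

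The other 15 hosts with introns in the set had none called. SNHG16 had log2 changes of 0.66, 0.50 and 0.17 in its 3 introns, SNHG15 had 0.63 in its 1 intron and SNHG7 had 0.66, 0.13 and 0.08. At the other end, SNHG26 had -0.23, -0.29 and -0.56, and the SNHG8 intron had -0.30 with an adjusted p of 0.784.

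**Figure D3:**
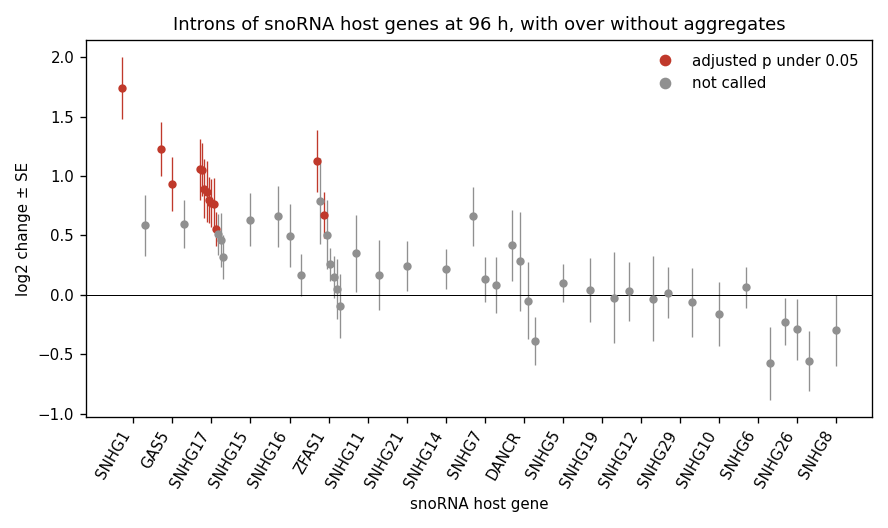
Log2 change ± SE of the 53 introns of snoRNA host genes, with over without aggregates, from the authors' deposited table, grouped by gene and ordered by the gene's median. The 13 red points, called at an adjusted p under 0.05, are in SNHG1, GAS5, SNHG17 and ZFAS1; the other hosts lie between -0.58 and 0.66.

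The list of nuclear and chromatin-bound RNAs had calls and a median near those of all noncoding introns. Its 10 genes with introns in the set had 79 introns, none called higher and 1 called lower (1.27%, beside 1.35% of the noncoding set and 1.65% over all introns), with a median log2 change of -0.16 and 26.6% above 0. Of the 79, 10 were of up to 1000 bases. Its difference from the snoRNA hosts was not tested. The lower call was in FIRRE, an X-linked RNA that binds nuclear matrix factors. FIRRE's intron at chrX:131703519-131709497 fell by 0.55 ± 0.16 on the log2 scale with an adjusted p of 0.0471, and all 12 of its introns lay below 0, down to -0.57. FTX, a gene of the X-inactivation centre, had 12 of 13 introns below 0 with a median of -0.25, and PVT1, the neighbour of MYC, had 18 of 21 below 0 with a median of -0.17. CYTOR went the other way without a call, with all 6 introns above 0 and a median of 0.27. LINC01578 is an older symbol of CHASERR, a regulator of its neighbour CHD2, and was not matched by the list. Its intron of 398 bases rose by 0.97 ± 0.27, and all 6 of its introns lay above 0. With LINC01578 counted in, the list holds 85 introns with 1 higher and 1 lower call.

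MicroRNA hosts had 119 introns in 15 genes, with no higher call and 2 lower calls (1.68%, beside 1.65% over all introns), and a median of -0.17. Both calls were in MIR646HG, the host of miR-646, at -0.51 ± 0.15 and -0.50 ± 0.14 for introns of 34474 and 82811 bases. All 14 introns of MIR99AHG and all 4 of MIR193BHG lay below 0 without a call, with medians of -0.37 and -0.39. DLEU1, listed with its neighbour DLEU2 at the locus of miR-15 and miR-16, had the most introns of any gene in the set, and 31 of 32 lay below 0 with a median of -0.26. The smallest adjusted p in DLEU1, 0.0517, belonged to an intron with -0.69 ± 0.21. DLEU2, which holds those microRNAs in its introns, had 11 of 13 above 0 with a median of 0.10. The intron with the highest value of the list was that of MIR22HG, a stress-responsive host, with 1.01 ± 0.33 and an adjusted p of 0.0893 in the authors' deposited table. RNAs linked to p53 and stress had 72 introns in 9 genes and 4 higher calls (5.56%), all of them in GAS5 and ZFAS1, which the snoRNA list also holds. The median of that list was -0.09.

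The 3 largest rises were in little-known lincRNAs with introns of 9133 to 36115 bases. The intron of AP005271.1 (ENSG00000265554) at chr18:10125502-10144156 had 2.15 ± 0.41, 4.45-fold, at a mean count of 38.7. AC113378.1 had 1.99 ± 0.38 at a mean count of 40.3, and LINC00382 had 1.85 ± 0.31 at 69.8, each with this as its 1 intron in the set. LINC01031 had both of its introns called, with 1.46 ± 0.26 and 1.31 ± 0.24. In LINC01033, by contrast, the intron of 67914 bases rose by 1.46 ± 0.27 while its 3 others were not called and the lowest had -0.13. The short introns of SNHG1 (1.74) and GAS5 (1.22), described above, were also among the 10 largest rises. The others of the 10 were in AC022217.3 (1.36 ± 0.31), an antisense gene, and ZNF687-AS1 (1.26 ± 0.33), 538 bases from the introns of ZNF687.

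Some rises stood side by side on a chromosome. On chromosome 15, the introns of AC100827.2, an unprocessed pseudogene, and of LINC02259 lie within chr15:72605618-72633337, and all 4 were called higher, at 0.97, 1.06, 1.02 and 0.84. ARIH1, an E3 ubiquitin ligase gene whose introns end 22411 bases away, had 2 of its 14 introns with an adjusted p called higher. On chromosome 14, LINC00519 and LINC00640 follow each other and had 0.89 and 1.21. LINC01411 had 2 of 7 introns called and LINC02641 had 2 of 5, and every intron of both genes lay above 0, between 0.22 and 0.67. The pseudogene RPL32P3 had 1 of 4 called, at 0.89 ± 0.20, with the other 3 between 0.46 and 0.75.

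Most protein-coding genes next to the rises had no called intron, and NSG2, LBP, GOLGA6B and RFPL3 had no intron with an adjusted p. The 41 risen introns had 27 different nearest coding genes. Of these, 4 had an intron called higher themselves, an untested but larger share than the 4.23% of the 14627 coding genes in the table. Apart from ARIH1 they were SLC3A2, an amino acid transporter subunit beside SNHG1, with 4 of 11 called, and DUSP8, a phosphatase of MAP kinases 569 bases from the called KRTAP5-AS1 intron, with 3 of 3. The last was ASIC4, an acid-sensing channel family member 2709 bases from the called AC053503.1 intron, with 1 of 1. Of the 41 risen introns, 9 lay within 5 kb of a coding gene's introns and 14 lay over 50 kb away. None of the 16 fallen introns had a nearest coding gene with an intron called in either direction. Among those genes, IGSF1, FMO2 and SFTPA1 had no intron with an adjusted p, and lower calls were 0.134% of coding introns. None of the 4233 introns overlapped another listed intron, so no value shares a listed stretch with another. Reads from the same transcript running past its annotated end into a noncoding gene were not tested for.

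The called falls were smaller in size than the called rises, and their introns were longer. The 16 introns called lower had a median log2 change of -0.65 and a median length of 19330 bases, against a median of 1.00 and 4831 bases for the 41 called higher. Introns called lower were also measured more precisely. Their median mean count was 330 and their median standard error 0.18, against 146 and 0.24 for those called higher. A smaller change can be called where the error is smaller, and the part of precision in the difference in size was not tested. COX10-AS1 (ENSG00000236088), transcribed opposite COX10, a gene of haem synthesis for cytochrome oxidase, had 4 of 12 introns called. They had -0.73 ± 0.19, -0.65 ± 0.18, -0.61 ± 0.16 and -0.53 ± 0.13, and all 12 COX10-AS1 introns lay below 0, with a median of -0.57, the lowest of any gene with at least 4 introns. Both introns of NPSR1-AS1 were called, with -0.71 ± 0.19 and -0.59 ± 0.16. The largest fall, -1.12 ± 0.33 in the pseudogene TPTE2P5, had an adjusted p of 0.0478 in the authors' deposited table and a mean count of 42.2. FMO6P, a pseudogene of the flavin monooxygenases, had -0.99 ± 0.28. Further falls among the first 10 were in LINC01876 (-0.82 ± 0.24), LINC01107 (-0.79 ± 0.17), SLC5A4-AS1 (-0.75 ± 0.18), SLC16A6P1 (-0.65 ± 0.19) and NUTM2B-AS1 (-0.62 ± 0.18). NUTM2B-AS1 was mixed, with 6 of its 12 introns above 0 and the highest at 0.41.

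Most genes with several introns had values on both sides of 0. Of the 288 genes with at least 4 introns in the set, which hold 1958 introns, 161 had introns on both sides, 100 had every intron below 0 and 27 had every intron above 0, while 32.0% of all noncoding introns were above 0. Only 12 of these 288 genes had a called intron. The 57 calls lay in 38 genes, 27 with higher calls and 11 with lower ones, and no gene had calls in both directions. Among genes with no call, GMDS-DT had all 16 introns below 0, EGFEM1P all 12 and AL390879.1 all 11, with medians of -0.19, -0.42 and -0.52. AC073869.1 had all 12 above 0 with a median of 0.22, and C5orf66 all 10 with a median of 0.26. Introns of a gene share transcripts and libraries, so such a run of 1 sign is a single observation.

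**Figure D4:**
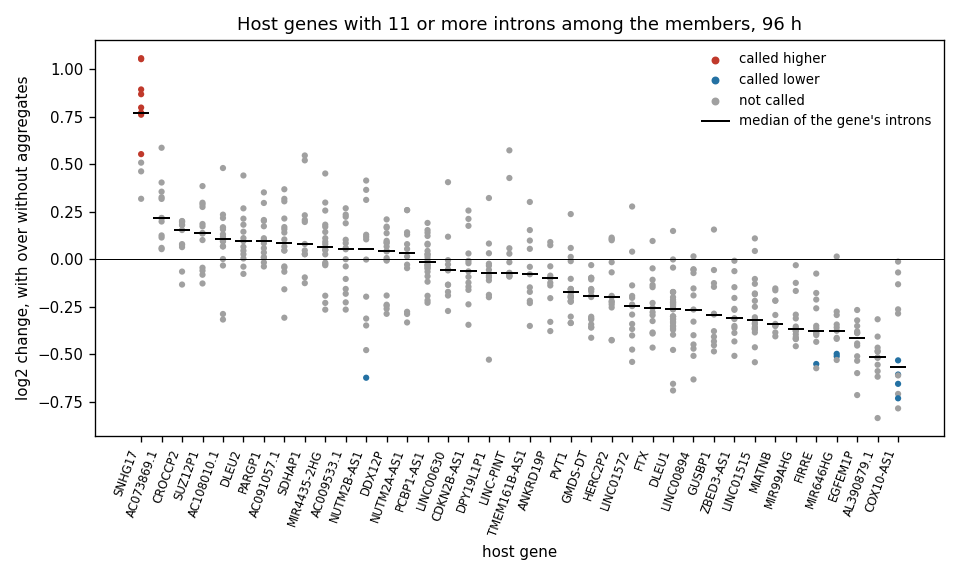
Log2 change of every intron, with over without aggregates, in each noncoding gene with 11 or more introns in the set, from the authors' deposited table. Black bars are gene medians, from 0.77 in SNHG17 to -0.57 in COX10-AS1; red points are introns called higher, blue points introns called lower.

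None of the 5 highest mean counts belonged to a called intron. The introns of FP671120.2 and FP236383.1 on the short arm of chromosome 21, where repeats of the ribosomal RNA gene lie, had mean counts of up to 146506 and 23657. Their errors were wide: the introns of FP671120.2 had log2 changes of 0.10 to 1.63 with standard errors of 0.49 to 1.02, and none was called. The authors' deposited table gives no adjusted p for 1 intron of each, the FP671120.2 intron with a mean count of 9295 and the FP236383.1 intron with a mean count of 60.8. Both genes have introns of 2071 and 347 bases, so they look like copies and reads may be split between them. The highest mean count outside this pair, 13356, was that of an intron of 194819 bases in the lincRNA AC016205.1, at -0.30 ± 0.19, and all 9 introns of AC016205.1 lay below 0.

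A second readout of the same 6 libraries was the authors' deposited splicing table, which gives the share of transcripts that use each junction or retain an intron (PSI) in each group. A variation was called where PSI changed by 0.1 or more and the table put the probability of a change of 0.2 or more at 0.95 or above. Genes of the noncoding introns held 3549 variations, and 41 were called, 1.16%, beside 0.115% of the 107827 in the table. Of the 41, 25 were in FP236383.1 and 7 in FP671120.2, the chromosome 21 pair. The other 9 were in 9 genes, 1 each. The largest of these was in AC044860.1, at a PSI of 0.628 with aggregates and 0.013 without, and the next in NUTM2B-AS1, at 0.004 with aggregates and 0.428 without.

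A retention level was given for 391 of the noncoding introns, in 230 genes, and none was called, beside 0.115% of all variations. At that share, none among 391 says little about retention. Of the 41 called variations in these genes, 20 had a called retained intron, but none of these was matched to an intron of the set. The change in retention ran from -0.19 to 0.12, and 8 introns moved by at least 0.1. Of the 57 introns called in the intron table, 6 had a retention level. The ZNF687-AS1 intron was retained at 0.42 with aggregates and 0.263 without, and the SNHG17 intron of 105 bases at 0.462 with aggregates and 0.414 without. The GAS5 intron of 194 bases, whose count rose 1.90-fold, was retained at 0.62 with aggregates and 0.612 without. LINC01876, whose intron fell, was retained at 0.747 with aggregates and 0.884 without. The 2 values left were 0.981 with and 0.936 without aggregates for AC100827.2, and 0.993 with and 0.995 without for SLC16A6P1. In GAS5 the authors' deposited table gives this difference in retention as 0.00712. The intron table holds no exon counts, so a change in the amount of a gene's RNA and a change in its splicing cannot be told apart from it.

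The 24 h libraries give a measure that took no part in choosing the introns, the level of each host gene in sorted aggregates and in total RNA. Reads on genes came to 1.19 M and 0.879 M in the aggregate libraries, against 13.7 M and 13.8 M in the total libraries, so 3 reads on a gene of 1 kb equal 2.52 and 3.41 FPKM in aggregates and 0.219 and 0.217 FPKM in total RNA. The line's neurofilament genes NEFL and NEFM were present in all libraries at 9.76 to 27.4 FPKM. Of 16 markers of other cell types, CD3E and COL1A2 were listed at 0 in all libraries and 5 reached 1 FPKM in at least 1 library, and their summed level was 12.96 and 14.89 FPKM in aggregates, against 9.31 and 9.42 FPKM in total RNA. The monocyte gene CD14 had 1.02 and 4.83 FPKM in aggregates, against 0.266 and 0.484 FPKM in total RNA. The collagen gene COL1A1 had 3.50 and 2.88 FPKM in aggregates, against 2.64 and 2.22 FPKM in total RNA. The neuron gene SYT1 had 3.76 and 4.35 FPKM in aggregates, against 3.49 and 3.65 FPKM in total RNA. SYN1 and COL3A1 overlapped between the groups. PTPRC, ALB, APOA1 and GFAP were at 0 in both aggregate libraries and at no more than 0.298 FPKM in total RNA, with PTPRC at 0 in total replicate 2. Levels this low lie far under what 3 reads give in the aggregate libraries, so these 0 values show no direction. The part of other cells in the 24 h differences was not tested. Levels are FPKM, per kilobase of transcript, and differences are on the log2(FPKM + 1) scale, which understates changes of low genes. Of the host genes, 601 were matched by a symbol that is listed once, and 404 passed the filter of at least 1 FPKM in 2 libraries.

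Host genes were more often higher than lower in aggregates. By limma with Benjamini-Hochberg adjustment, 171 of the 404 were higher in aggregates, beside 22.3% of all 13185 genes fitted, and 14 were lower, beside 19.7% (41.9% of all genes were called in either direction). That is 42.3% higher and 3.47% lower for the host genes, with a median difference of 0.65 against 0.07 over all genes. In 274 host genes both aggregate libraries lay above both total libraries (67.8%), beside 41.8% of all genes, and in 44 (10.9%) both lay below, beside 34.9%. A gene can pass the filter through the higher group alone, and at the depth of the aggregate libraries 1 FPKM can be a single read. Keeping genes whose mean share of reads gives 10 or more reads in the shallower aggregate library, 131 of 206 host genes were higher and 14 lower, beside 26.3% and 26.1% of 10207 genes and 52.3% in either direction. Leaving out 1 total library leaves 1 in that group, so only sizes are given for it. Without total replicate 1 or 2 the median difference of host genes was 0.65 and 0.66, beside 0.09 and 0.08 over all genes. Nearly all calls depended on having both total libraries, for host genes as over all genes.

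The direction was shared by the main gene types. Of 83 lincRNA genes 34 were higher and 1 lower, of 135 antisense genes 56 were higher and 4 lower, and of 95 transcribed unprocessed pseudogenes 44 were higher and 3 lower. PVT1 had 15.5 and 23.3 FPKM in aggregates, against 4.72 and 5.42 FPKM in total RNA, a difference of 1.72 ± 0.23 (SE) with an adjusted p of 0.0129 by limma. FTX had 5.21 and 5.01 FPKM in aggregates, against 1.10 and 1.07 FPKM in total RNA. MIRLET7BHG, the host of let-7b, had 4.43 and 5.74 FPKM in aggregates, against 0.785 and 0.906 FPKM in total RNA. In these genes, as in LINC-PINT and JPX, the libraries of the 2 groups did not overlap, and each was called higher. TUG1, another RNA of the nuclear list, was lower, with 36.8 and 36.3 FPKM in aggregates, against 51.8 and 54.0 FPKM in total RNA.

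The snoRNA hosts split at 24 h. Of 16 fitted, 5 were higher and 5 lower in aggregates (31.2% each). Over all genes fitted 22.3% were higher and 19.7% lower, so calls in both directions were common, while host genes had 42.3% and 3.47%. With at least 10 expected reads, 6 of 15 snoRNA hosts were higher and 6 lower, beside 26.3% and 26.1% of all genes. These shares were not tested against each other. SNHG17, the host with the most risen introns at 96 h, had 39.4 and 57.5 FPKM in aggregates, against 17.5 and 18.5 FPKM in total RNA, a difference of 1.36 ± 0.21 with an adjusted p of 0.0159 by limma. SNHG7, SNHG11, SNHG12 and SNHG19 were the others called higher. GAS5 had 37.7 and 35.1 FPKM in aggregates, against 54.3 and 55.1 FPKM in total RNA, a difference of -0.58 ± 0.07 with an adjusted p of 0.0123. SNHG1 had 22.2 and 25.5 FPKM in aggregates, against 50.5 and 47.9 FPKM in total RNA, a difference of -1.02 ± 0.10. The hosts with risen introns at 96 h thus lay on both sides at 24 h, and in each of these 3 the libraries of the 2 groups did not overlap. ZFAS1 had 24.3 and 39.2 FPKM in aggregates, against 51.3 and 54.6 FPKM in total RNA, with an adjusted p of 0.0807. The other hosts called lower were SNHG5, SNHG6 and SNHG16, the last with 56.0 and 54.9 FPKM in aggregates, against 124 and 120 FPKM in total RNA.

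Hosts of fallen introns were higher or uncalled in aggregates. COX10-AS1 had 9.26 and 12.9 FPKM in aggregates, against 4.68 and 5.24 FPKM in total RNA, a difference of 1.00 ± 0.20 with an adjusted p of 0.0261 by limma. MIR646HG had 8.65 and 6.13 FPKM in aggregates, against 1.93 and 2.31 FPKM in total RNA, and FIRRE had 18.2 and 15.9 FPKM in aggregates, against 10.7 and 11.3 FPKM in total RNA. These 3 of the 5 fitted were called higher, and neither of the others, NUTM2B-AS1 and TPTE2P5, was called. Beside them, 42.3% of all host genes fitted were higher and 3.47% lower, so 5 genes do not set this group apart. With at least 10 expected reads, 3 hosts of fallen introns were fitted and 2 were higher, beside 63.6% of host genes. DLEU1, with most introns just below 0 at 96 h, had 15.2 and 10.6 FPKM in aggregates, against 5.94 and 6.74 FPKM in total RNA. Of 11 fitted hosts of risen introns, 6 were higher and 2 lower, with a median difference of 0.75, but the balance turned under the limit of 10 expected reads, where 6 were fitted, 2 higher and 3 lower, with a median of -0.25. Among the 6, SNHG17 and RPL32P3 had 63 or more reads in each aggregate library, while KRTAP5-AS1, LINC01031, LINC01411 and RFPL3S had 3 to 6. KRTAP5-AS1, LINC01031 and LINC01411 were under 1 FPKM in both total libraries and so passed the filter through the aggregate libraries alone. LINC01031 had 3.24 and 4.38 FPKM in aggregates, from 3 and 3 reads, against 0.563 and 0.744 FPKM in total RNA, from 6 and 8 reads. The 24 h comparison sets a fraction against whole cells and the 96 h comparison sets seeded against unseeded cells, so their signs measure different things.

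**Figure D5:**
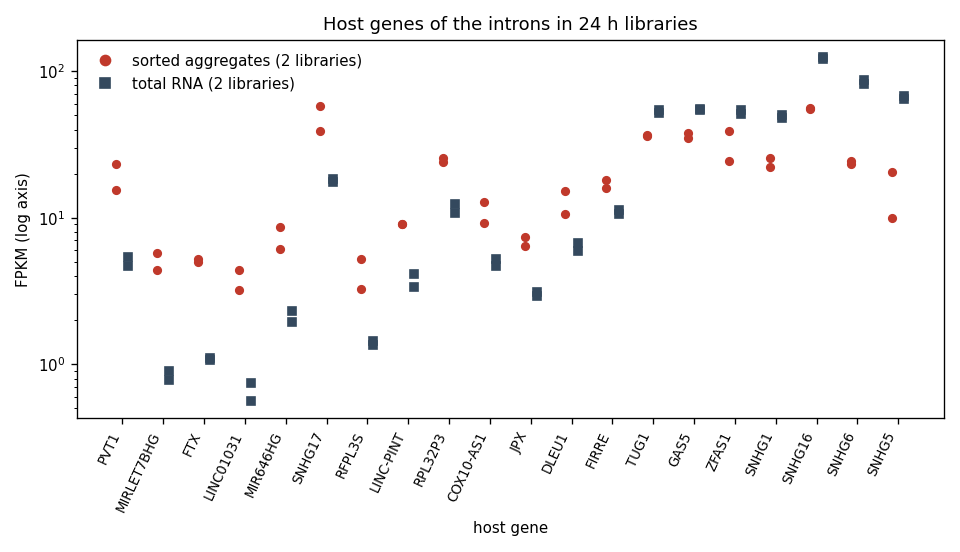
FPKM (log axis) of 20 host genes in the 24 h libraries, sorted aggregates (circles, 2 libraries) left of total RNA (squares, 2 libraries), ordered by difference. The genes were picked for display from those named by the rule; PVT1 lies highest above its total RNA on the log2(FPKM + 1) scale and SNHG5 furthest below it, and SNHG17 and GAS5 lie on opposite sides.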

How the data were processed

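STAR 2.6.0c and the builds hg38 and GRCh38 are named in the submitters' processing notes. For counting, strand, depth at 96 h and the versions of the intron and splicing tools, the answer is not given in the sources used here. Per the file headers, the authors deposited 1 intron table for the 6 libraries at 96 h, with a mean normalized count (signal), a log2 change, its standard error (log2), a test statistic (score), a p-value and an adjusted p, and no values per sample. The authors also deposited a splicing table of PSI values and probabilities. Both were used as given, and no model was refitted at 96 h. Intron starts in the deposited table are counted from 0, since 51576 boundaries match a splice junction that way and 5 otherwise, and are printed counted from 1. For 24 h the authors deposited FPKM values per gene. Their steps gave whole reads for 100% of values, used for depth only. Log2(FPKM + 1) was fitted by limma (version 3.58.1, under R 4.3.3) using its mean-variance trend (2 residual degrees of freedom), for genes of at least 1 FPKM in 2 of 4 libraries, and the calls used Benjamini-Hochberg adjusted p-values under 0.05; the fit was tested on simulated data. The 12 mouse libraries were not used. Standard errors come from the deposited table or from limma; the FPKM that 3 reads give covers counting error only.

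Named introns are the 10 largest called changes in each direction, the 5 highest mean counts, up to 4 introns per gene list, genes with at least 4 introns, and 3 introns on each side of the minimum. Other called introns, the further snoRNA hosts, the introns outside that rule and the 24 h genes shown were named after their values were seen. Members and lists were chosen with earlier results of these data known.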

Additional observations from a re-analysis of the deposited data

How the results depend on the processing

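At 96 h the called noncoding introns numbered 25 at an adjusted p under 0.01 (23 higher, 2 lower), 86 under 0.1 (38 lower) and 22 with a log2 change of at least 1 in size (21 higher, 1 lower). With 1 intron per gene, the one with the highest mean count, 27 were called (22 higher, 5 lower). With p adjusted over all introns of the table, 8 were called lower. Under these limits the share called over all introns was not worked out. Leaving out introns that overlap a protein-coding one changes nothing, since 0 do. No paired analysis was possible because the 96 h tables hold no values per sample; for the same reason no 96 h library could be left out. The 41 called splicing variations stayed 41 under both other limits, which varied only the minimum change in PSI. The limit on the probability was kept, and it already asks for a change of a larger size than that minimum. The count could thus hardly move, and its staying the same says nothing about how firm the calls are. At 24 h, with no filter on low values, 129 host genes were higher (beside 12.7% of all genes) and 22 lower (beside 12.6%). Leaving out 1 library gave 0 to 247 higher and 0 to 51 lower, and the counts of 0 came without either total library. SNHG8, uncalled, had 0.40 without aggregate replicate 1 and -0.29 without aggregate replicate 2. A replicate block gave 142 host genes higher (35.1%, beside 15.7% of all genes) and 11 lower (beside 2073 of 13185 genes). Same-numbered libraries deviated together by a correlation of 0.06, so the numbers were not taken to pair them. The limit of 10 expected reads was chosen after seeing the data. Depth in the aggregate libraries limits host genes under about 3 FPKM.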
